A study of Homo sapiens with 2 samples.

Results

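The ZNF genes are the numbered members of the zinc finger family in the human gene nomenclature, and 233 of them were expressed well enough in both libraries to be described here. A member had to be a protein-coding gene with a symbol made of ZNF, a number and at most 1 further letter, and at least 1000 deposited read counts in each library. Of 512 protein-coding ZNF genes, 279 did not reach that minimum in 1 or both libraries, and the 233 members stood among 46427 gene rows in all. The members were thus chosen by their read counts in these same libraries, so the levels and ratios below are a description, and a gene that was high in 1 library and low in the other could not enter.

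The labels name the cells as MIA PaCa-2, a widely used line that was grown out of a human tumour of the pancreas. One library came from cells given iMQT_020 for 48 hours, and 1 came from cells given vehicle for 48 hours. The study describes iMQT_020 as an inhibitor of the transporter that carries glutamine into mitochondria, and its concentration is not given in the sources used here. With 1 library per treatment there were no replicates, so no test and no p-value was possible, and the treatment cannot be told apart from any other difference between the 2 libraries. Genes were therefore sorted by the size of their ratio, and intervals on single genes cover counting error only.

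Most ZNF proteins bind DNA through fingers of the C2H2 type, in which a pair of cysteines and a pair of histidines hold a zinc ion, and fingers strung in a row read longer stretches of sequence. Many also carry a KRAB domain, which binds the cofactor TRIM28, and TRIM28 in turn brings the histone methyltransferase SETDB1 to the bound site. KRAB zinc finger genes lie largely in clusters on chromosome 19, arose there by repeated duplication, and are best known for silencing transposable elements. The family also holds proteins with other work, such as ribosome quality control, chromosome segregation and gene activation.

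The libraries held 59139157 counts (iMQT_020) and 67095283 counts (vehicle). MIA PaCa-2 cells are known to lack the segment that holds CDKN2A, yet this gene was at 208 TPM in the iMQT_020 library and 278 TPM in the vehicle library. Its neighbours CDKN2B (13.5 and 8.04 TPM) and MTAP (26.2 and 33.7 TPM) were also present. CD44, which that line is known to express, was at 0.0209 and 0.0964 TPM, while VIM was at 438 and 403 TPM. Of the epithelial keratins, KRT8 (92.3 and 128 TPM) and KRT18 (77.5 and 97.4 TPM) were present, and KRT7 and KRT19 were listed at 0 in both libraries. Whether the cells are that line is therefore uncertain. Of 18 markers of immune, endothelial, fibroblast, liver and other pancreatic cells, 9 were at 0 in both libraries, among them PTPRC, COL1A2 and INS. Their summed level was 15.1 TPM (iMQT_020) and 19.97 TPM (vehicle), of which COL1A1 made up 11.1 and 16.5 TPM. Their part in the differences below was not tested.

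ZNF messages were low compared with those of other expressed genes. The median member stood at 19.3 TPM in the iMQT_020 library and 17.1 TPM in the vehicle library, against 39.5 and 37.8 TPM for the 8212 other protein-coding genes that passed the same minimum. Members ran from 4.98 to 225 TPM with iMQT_020 and from 4.79 to 207 TPM with vehicle. In both libraries 115 members lay below 20 TPM, and 5 lay above 100 TPM. Together the 233 genes took 707181 counts, or 1.20% (95% Wilson interval 1.19% to 1.20%), of the iMQT_020 library and 713359 counts, or 1.06% (1.06% to 1.07%), of the vehicle library. In such bulk samples fewer cells that express a gene and less of its RNA per cell cannot be told apart.

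The most abundant member was ZNF664, a finger protein on chromosome 12 (chr12:123973215-124015427, GRCh38.p14) of which little is known. It had 24680 counts and 225 TPM with iMQT_020, and 24886 counts and 194 TPM with vehicle. ZNF146, a protein that consists almost wholly of fingers, was at 181 TPM (iMQT_020) and 154 TPM (vehicle). ZNF207, the kinetochore factor also called BuGZ that protects the spindle checkpoint protein BUB3, was at 166 and 144 TPM. ZNF768, which is known to bind sequences of an old class of repeats, was at 155 and 160 TPM. ZNF24, a SCAN domain repressor, was at 107 and 85.4 TPM. The log2 ratios of these 5 genes, iMQT_020 over vehicle, ran from −0.08 for ZNF768 to 0.27 for ZNF24, so the abundant members differed little between the libraries, with the exception of ZNF703, described below.

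Across the family the ratio leaned to the iMQT_020 side by a small amount. The median log2 ratio of CPM, the counts scaled to library size, was 0.19 (order-statistic 95% interval over members 0.16 to 0.23), against 0.01 (0.00 to 0.02) for the other protein-coding genes. A ratio above 0 was found for 175 of 233 members, or 75.1%, where 52% of all 8445 protein-coding genes at this minimum lay above 0. The middle 50% of members lay between 0.01 and 0.36, and the whole range ran from −0.93 to 0.75. No member was 2-fold higher, where the rule took 0.189% of all genes, and none was 2-fold lower, where it took 0.45%. At a smaller fold of 1.5, 14 members (6.01%) were higher with iMQT_020, against 2.25% of all genes, and 5 members (2.15%) were lower, against 3.65%. When the ratio was centred on genes of like GC content and transcript length, 3 members (1.29%) were 1.5-fold higher and 4 (1.72%) were lower. All genes so centred gave 0.825% higher and 3.05% lower. The deposited FPKM gave 4 higher and 4 lower on log2(FPKM + 1), a scale that understates the change of low genes. There the rule took 1.27% and 3.16% of all genes. On the deposited FPKM with nothing added, an alternative chosen after the data were seen, 12 were higher and 5 lower. Of all genes, 2.47% were higher and 3.69% lower on that scale. The counting interval lay wholly above 0 for 148 members, wholly below 0 for 36 and over 0 for 49. At this depth most intervals of other genes also left out 0, with 3456 of 8212 wholly above and 3259 wholly below. Genes called higher or lower in what follows passed the 1.5-fold rule on counts.

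**Figure D1:**
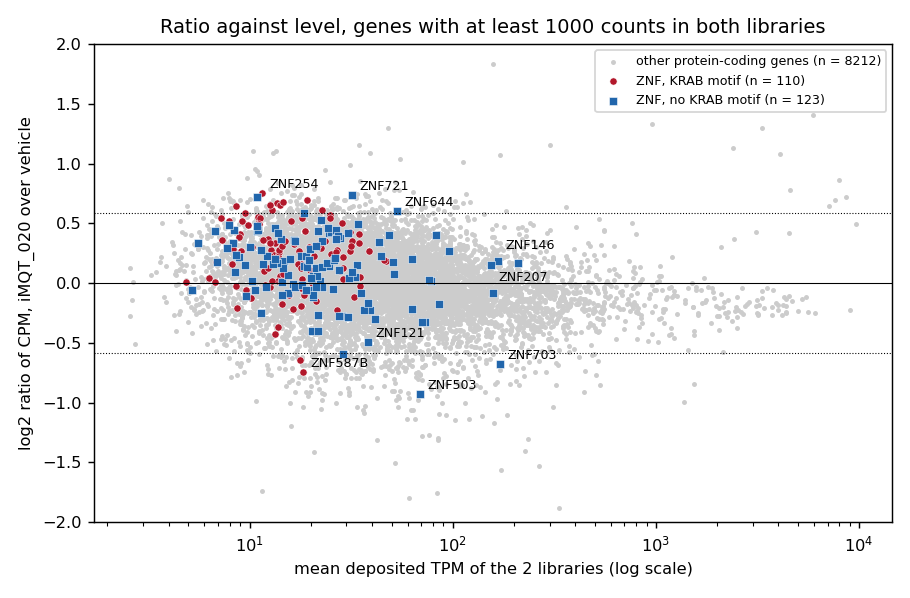
Each point is a gene with at least 1000 counts in both libraries; the horizontal axis is its mean deposited TPM on a log scale and the vertical axis its log2 ratio of CPM, iMQT_020 over vehicle, with dotted lines at 1.5-fold. The 110 ZNF genes with a KRAB motif (red) and the 123 without (blue) lie mostly at low levels and above 0, while ZNF703 and ZNF503 stand out below among the more abundant members.

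Among the 14 higher members, 10 carried a KRAB motif and 9 lay on chromosome 19. Of all 233 members, 110 carried the motif and 88 lay on that chromosome. ZNF254, a KRAB gene of the large cluster near the centromere of chromosome 19 (chr19:24033449-24129968), had the highest ratio. It had 1576 counts and 14.5 TPM with iMQT_020, against 1058 counts and 8.64 TPM with vehicle, a log2 ratio of 0.75 (counting interval 0.64 to 0.86). ZNF721, a gene with 23 finger matches near the end of the short arm of chromosome 4 (chr4:439988-499156), had 4836 counts and 40.5 TPM with iMQT_020, against 3286 counts and 23.6 TPM with vehicle (log2 ratio 0.73). ZNF654, on chromosome 3, had 2260 counts with iMQT_020 and 1551 with vehicle (0.72). Both of the last 2 genes lacked the KRAB motif, and ZNF654 overlaps CGGBP1 in the annotation, so reads of the pair cannot be told apart where the counting step did not use strand.

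A group of 4 genes from 1 cluster on the long arm of chromosome 19 followed. ZNF468 had 2697 counts and 23.5 TPM with iMQT_020, against 1886 counts and 14.7 TPM with vehicle (log2 ratio 0.69). ZNF845 had 2881 and 2030 counts (0.68), ZNF28 had 1968 and 1397 counts (0.67), and ZNF765 had 1994 and 1431 counts (0.65), each with the iMQT_020 library first. These KRAB genes are close relatives: over their aligned coding sequence ZNF28 and ZNF468 were 94.8% identical and ZNF845 and ZNF765 were 90.6% identical. ZNF140, a KRAB repressor on chromosome 12, had 1978 and 1462 counts (0.61), and ZNF778, on chromosome 16, had 2240 and 1619 counts (0.64). ZNF644 was the most abundant of the 14. It works with the histone methyltransferases EHMT1 and EHMT2, and it had 9571 counts and 64.5 TPM with iMQT_020, against 7130 counts and 42.4 TPM with vehicle (0.60, counting interval 0.56 to 0.65). The remaining 2 were ZNF134 (0.59) and ZNF493 (0.59), both on chromosome 19 and both close to the limit of the rule.

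ZNF585A and ZNF585B, a duplicated pair on chromosome 19 with 21 finger matches each, were both higher by counts. ZNF585A had 1954 counts with iMQT_020 and 1406 with vehicle (log2 ratio 0.65), and ZNF585B had 2498 and 1844 counts (0.61). In the deposited TPM the pair parted: ZNF585A was at 14.04 (iMQT_020) and 11.1 (vehicle), ZNF585B at 15.8 and 9.98. Their coding sequences were identical at 96.1% of positions, so reads could be assigned to either gene. The first finger of each shows how close such copies are and is set beside that of ZNF254 and of ZNF587 and ZNF417, another pair from the same chromosome with 99.1% identity. Each stretch spans 78 coding bases of the last exon, read 5′ to 3′ on the strand of the gene from GENCODE 44 on GRCh38. Capitals mark the codons of the 2 cysteines and 2 histidines that hold the zinc ion.
ZNF254: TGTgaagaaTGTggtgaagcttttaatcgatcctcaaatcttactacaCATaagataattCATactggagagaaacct
ZNF585A: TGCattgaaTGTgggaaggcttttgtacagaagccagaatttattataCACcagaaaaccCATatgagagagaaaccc
ZNF585B: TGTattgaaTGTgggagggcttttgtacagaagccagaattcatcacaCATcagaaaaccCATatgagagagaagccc
ZNF587: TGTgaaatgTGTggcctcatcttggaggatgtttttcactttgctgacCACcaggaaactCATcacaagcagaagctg
ZNF417: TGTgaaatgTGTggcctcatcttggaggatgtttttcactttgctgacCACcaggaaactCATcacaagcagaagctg
The ZNF254 stretch lies at chr19:24126802-24126879 on the plus strand, in exon 4 of 4. ZNF585A lies at chr19:37153344-37153421 and ZNF585B at chr19:37186982-37187059, both on the minus strand in exon 5 of 5, and they differ at 7 of the 78 bases. ZNF587 lies at chr19:57858692-57858769 on the plus strand and ZNF417 at chr19:57909921-57909998 on the minus strand, both in exon 3 of 3, and over this stretch 0 bases differ. No read lying wholly within that last stretch could be assigned to 1 of those 2 genes by sequence. Neither ZNF587 (−0.17) nor ZNF417 (−0.02) was called.

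**Figure D2:**
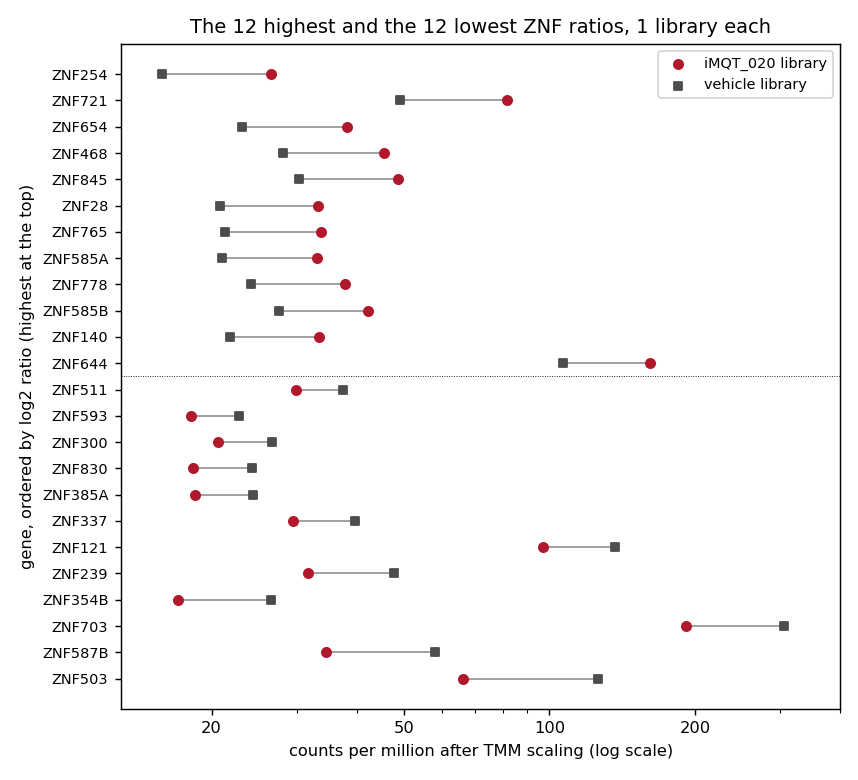
The 12 ZNF genes with the highest and the 12 with the lowest log2 ratio are shown with their CPM after TMM scaling on a log axis, red circles for the iMQT_020 library and grey squares for the vehicle library. The gap within a pair is widest for ZNF503 at the foot of the plot (66.2 and 126 CPM).

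The 5 lower members were led by ZNF503 and ZNF703, the pair of the family's NLZ type. These are repressors and cofactors that act through other DNA-binding proteins, are known from development, and hold no array of C2H2 fingers. ZNF503, on chromosome 10 (chr10:75279725-75401916), had 3924 counts and 48.3 TPM with iMQT_020, against 8455 counts and 89.3 TPM with vehicle. Its log2 ratio of −0.93 (counting interval −0.99 to −0.88) was the lowest of the 233, a 1.91-fold difference. ZNF703, an oncogene of luminal breast cancer, had 11336 counts and 134 TPM with iMQT_020, against 20493 counts and 207 TPM with vehicle (log2 ratio −0.68, −0.71 to −0.64). It was the most abundant member in the vehicle library. Aligned over 1694 coding bases, ZNF703 and ZNF503 were 74.9% identical. ZNF503 overlaps ZNF503-AS2, an antisense gene with 108 counts in the iMQT_020 library and 243 in the vehicle library.

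The other 3 lower members were finger genes. ZNF587B, a KRAB gene of the cluster at the end of chromosome 19, had 2048 counts and 13.99 TPM with iMQT_020, against 3878 counts and 22.7 TPM with vehicle (log2 ratio −0.74). It was the lowest of the members on that chromosome, and the relative ZNF587, 78.3% identical over the aligned bases, was at −0.17. ZNF354B, a KRAB gene on chromosome 5, had 1008 and 1779 counts (−0.64), and ZNF239, also called MOK2, a protein known to bind both DNA and RNA, had 1877 and 3192 counts (−0.59), with the iMQT_020 value first. ZNF121, with 5757 counts with iMQT_020 and 9159 with vehicle (−0.49), did not pass the rule on counts but was at −0.70 once centred on GC content and length. The next values, for ZNF337, ZNF385A, ZNF830, ZNF300, ZNF593 and ZNF511, ran from −0.43 to −0.32. Of these, ZNF385A is a cofactor of p53 (1093 and 1631 counts), ZNF830 is a splicing-associated nuclear protein (1087 and 1622 counts), and ZNF593 is related to a yeast factor that helps export the large ribosomal subunit (1077 and 1527 counts).

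The members that carry a KRAB motif were compared with those that do not. The motif was the conserved core of the KRAB A box in the translated canonical transcript, and 110 members held it. It misses some genes known to have the domain, such as ZNF445 and ZNF224, so the group without it is not free of KRAB proteins. The 110 had a median log2 ratio of 0.26 (0.18 to 0.30), with 89 above 0, 10 (9.09%) called higher and 2 (1.82%) called lower. The other 123 had a median of 0.15 (0.10 to 0.19), with 86 above 0, 4 (3.25%) called higher and 3 (2.44%) called lower. Of all genes, 2.25% were called higher and 3.65% lower. Centred on GC content and length, the medians were 0.14 (0.09 to 0.19) and 0.11 (0.03 to 0.14). The intervals of the groups overlapped before centring as well as after, and they run over related genes that are not independent.

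Members with more finger matches stood somewhat higher. A finger whose cysteines and histidines are spaced otherwise than in the pattern searched was not matched, so the number of fingers can be undercounted. The 49 genes with at least 15 finger matches had a median log2 ratio of 0.28 (0.19 to 0.41) with 44 above 0. Of these, 6 (12.2%) were called higher, among them ZNF721, ZNF845 and ZNF28, against 2.25% of all genes. The 75 genes with 10 to 14 matches had a median of 0.22, the 62 with 5 to 9 a median of 0.14 and the 40 with 1 to 4 a median of 0.12. The 7 genes with no match were ZNF609, ZNF330, ZNF839, ZNF395, ZNF703, ZNF503 and ZNF704, and their ratios ran from −0.93 to 0.35 around a median of −0.12. Spearman's rho of the number of matches with the ratio was 0.26 over the 233 genes, and 0.19 with the centred ratio. It is a description across genes that are not independent.

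The same lean was present in finger genes with other names. The 60 other expressed genes with at least 5 finger matches had a median log2 ratio of 0.24 (0.14 to 0.31), with 48 above 0. The 186 ZNF members with at least 5 matches had 0.22 (0.17 to 0.27). Centred, those 60 genes had a median of 0.16. By family, the 26 ZBTB genes, which pair fingers with a BTB domain, had a median of 0.30 with 21 above 0, and the 4 ZKSCAN genes, which hold KRAB and SCAN domains, had a median of 0.38. The 9 KLF genes (0.20, 5 above 0), the 6 ZFP genes (0.09) and the 6 ZSCAN genes (0.07) were fewer. The medians of all these families lay on the same side of 0 as that of the ZNF members, with the exception of the KLF genes once centred (−0.01), and no test of a difference was possible.

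**Figure D3:**
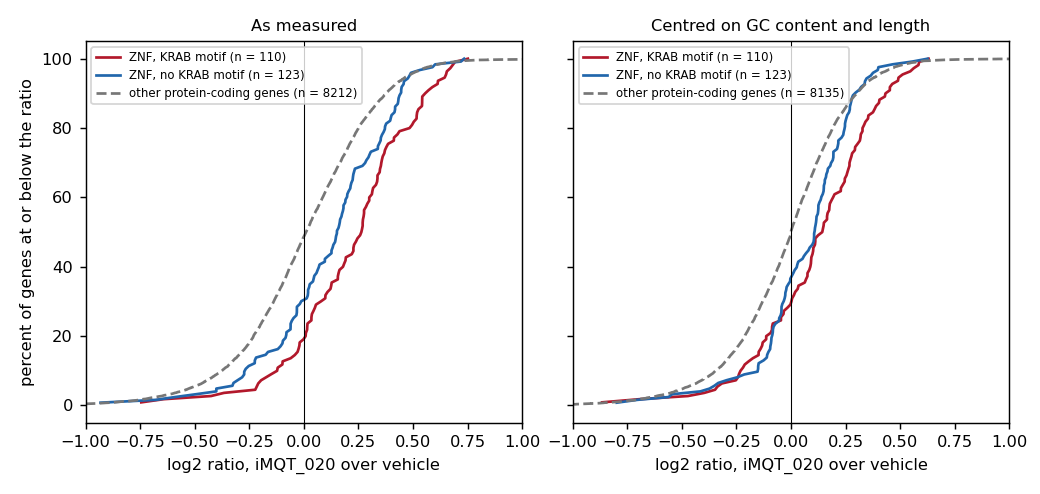
The curves give the percent of genes at or below each log2 ratio, iMQT_020 over vehicle, between −1 and 1, for ZNF genes with a KRAB motif (red, 110), ZNF genes without one (blue, 123) and other protein-coding genes (dashed grey, 8212, or 8135 with a transcript model in the right panel). Both ZNF curves lie to the right of the grey curve over most of the range, and the distance is smaller in the right panel, where each ratio is centred on genes of like GC content and length.

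Chromosome 19 held 88 of the 233 members, followed by chromosome 7 with 20 and chromosome 16 with 17. The 88 had a median log2 ratio of 0.26 (0.16 to 0.31), with 68 above 0, 9 (10.2%) called higher and 1 (1.14%) called lower. The 435 other expressed protein-coding genes of the same chromosome had a median of −0.14 (−0.17 to −0.10), with 133 above 0. Of these, 1 (0.230%) was called higher and 28 (6.44%) were called lower. Of all genes, 2.25% were called higher, 3.65% were called lower and 52% lay above 0. On the other chromosomes the 145 ZNF members had a median of 0.16 and the 7777 other genes a median of 0.02. After centring on GC content and length, chromosome 19 stood at 0.14 for ZNF members and 0.02 for the other genes, so the gap narrowed on both sides. Within chromosome 19, the 64 members with the KRAB motif had a median of 0.27 and the 24 without it a median of 0.04. Elsewhere the order did not repeat, with 0.14 for 46 KRAB members and 0.17 for 99 others.

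ZNF genes of chromosome 19 formed 6 clusters of at least 5 members each, joined where neighbours lay within 500 kb. Members in smaller groups, such as ZNF557 and ZNF507, lie outside these clusters. The clusters were drawn after the values had been seen and are given as a description. The highest was the cluster at chr19:51571283-53580269, where 15 of 16 members lay above 0 and the median was 0.45, or 0.31 centred. All 16 carried the KRAB motif, and 4 of them, ZNF468, ZNF845, ZNF28 and ZNF765, were called higher, against 2.25% of all genes. Its lowest member was ZNF320, with 3013 counts with iMQT_020 and 3772 with vehicle (−0.15), a direct neighbour of ZNF468. In the pericentromeric cluster at chr19:19668153-24129968, all 12 members lay above 0, from 0.22 for ZNF724 to 0.75 for ZNF254, with a median of 0.37. It includes ZNF91, known for repressing SVA retrotransposons, with 1587 counts with iMQT_020 and 1254 with vehicle (0.52).

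The cluster at chr19:36182060-37779586 had a median of 0.35 over 13 members, from ZNF875 (−0.20) to ZNF585A (0.65). The 7 members at chr19:8509678-9786160 had a median of 0.26, between ZNF121 (−0.49) and ZNF426 (0.34). Lower medians were found at chr19:43530835-44500522 (0.01 over 8 members, from −0.22 for ZNF428 to 0.42 for ZNF227) and at chr19:57191500-58489533 (0.10 over 18 members). The last cluster was the most divided, holding ZNF134 (0.59) and ZNF587B (−0.74), with 12 of 18 members above 0. The clusters with the higher medians were also poorer in GC: the median transcript GC content was 37.0% in the pericentromeric cluster, 40.3% in the one with median 0.45, and 44.4% in the last. Of the other chromosomes, 3 had a median below 0: chromosome 8 (−0.10, with 1 of 7 members above 0), chromosome 20 (−0.10, with 2 of 6) and chromosome 2 (−0.01, with 2 of 4).

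**Figure D4:**
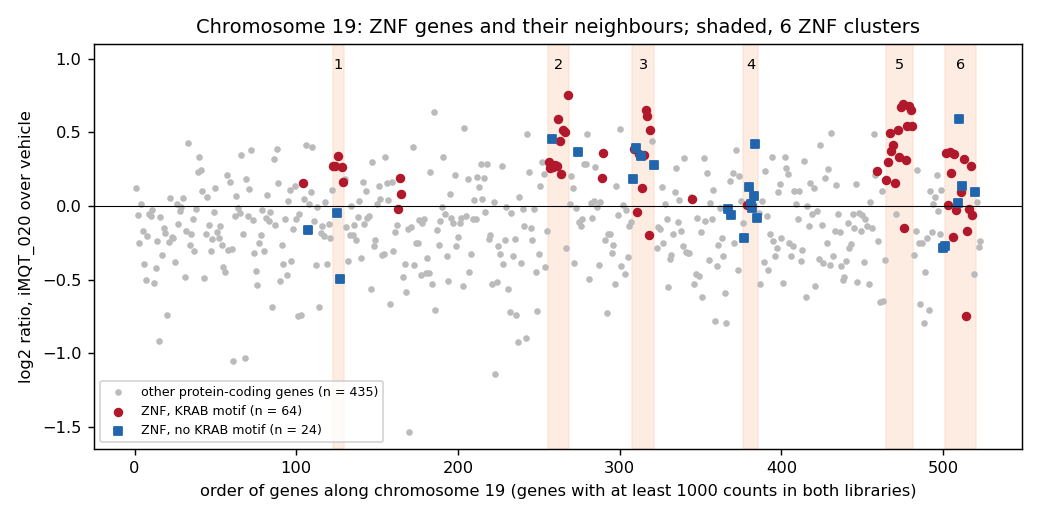
Expressed protein-coding genes of chromosome 19 are set in their order along the chromosome on the horizontal axis, with the log2 ratio, iMQT_020 over vehicle, on the vertical axis. Red circles are the 64 ZNF genes with a KRAB motif, blue squares the 24 without and grey points the 435 other genes, and the 6 shaded bands are the ZNF clusters, of which bands 2 and 5 hold a single ZNF gene below 0 between them (ZNF320).

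The ratio moved with transcript composition in ZNF genes and in other genes alike. Spearman's rho between the log2 ratio and the GC content of the canonical transcript was −0.44 over 233 members and −0.34 over 8135 other genes. With transcript length it was 0.38 and 0.42. ZNF transcripts were poorer in GC, with a median of 42.5% against 46.8%, and longer, with a median of 4558 against 3678 bases. The genes were split at equal numbers into 3 groups of GC content. In the lowest group, the 117 members had a median log2 ratio of 0.29 (0.23 to 0.35) and the 2672 other genes 0.11. In the middle group the medians were 0.13 for 65 members and 0.03 for the rest, and in the highest group 0.06 for 51 members and −0.12 for the rest. The median of the members lay above that of the others in each group. Centring the ratio on other genes in joint bins of GC content and length left a median of 0.11 (0.09 to 0.15), with 156 of 233 above 0.

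**Figure D5:**
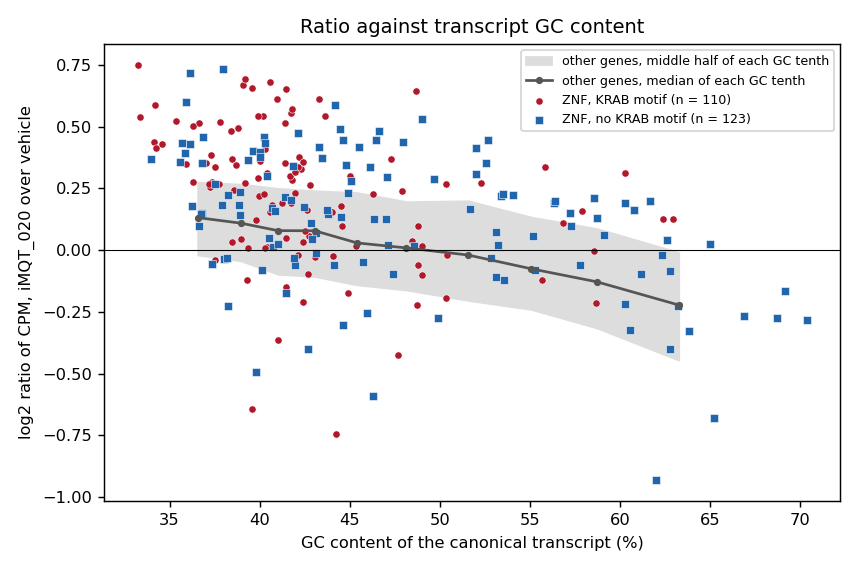
Each red circle (KRAB motif, 110) or blue square (no KRAB motif, 123) is a ZNF gene, placed by the GC content of its canonical transcript in percent and its log2 ratio, iMQT_020 over vehicle. The grey line joins the medians of the other genes in 10 equal groups of GC content and the grey band holds their middle 50%; ratios fall with GC content in both, and ZNF genes at low GC content lie mostly above the line.

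A list of 46 ZNF genes with a described role was read for function, and 41 of them were members. Their median log2 ratio was 0.15, with 30 above 0, 1 called higher (ZNF644) and 2 called lower (ZNF503 and ZNF703). Those calls are 2.44% and 4.88% of the 41, against 2.25% and 3.65% of all genes. ZNF93, known for repressing L1 elements, was listed at 0 in both libraries. ZNF423, ZNF460, ZNF519 and ZNF521 were measured below the minimum.

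Several members of the list are known for silencing, and none of the following was called. ZNF10, whose KRAB domain is the one used in CRISPR interference, had 1302 counts with iMQT_020 and 1052 with vehicle (0.48). ZNF445, a regulator of imprinting, had 4050 and 3729 counts (0.30). ZNF274, known to bring SETDB1 to the 3′ ends of ZNF genes themselves, had 2486 and 2329 counts (0.27). ZNF638, which recruits the HUSH silencing complex to unintegrated retroviral DNA, had 15858 and 13565 counts (0.40).

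Other members of the list have roles in transcription. ZNF410, an activator known for its dedication to the gene of the chromatin remodeller CHD4, had 3227 counts with iMQT_020 and 2870 with vehicle (0.35), and CHD4 itself had 40088 and 34157 counts (0.41). ZNF143, which binds near promoters, had 1535 and 1810 counts (−0.06), and its paralog ZNF76 had 1650 and 1702 counts (0.13). ZNF711, a partner of the histone demethylase PHF8, had 4286 and 5659 counts (−0.22). ZNF395, described as responsive to hypoxia, had 2456 and 3015 counts (−0.12). ZNF217, an oncogene amplified in breast cancer, had 2406 and 2101 counts (0.37). ZNF318 (0.53), ZNF462 (0.45), ZNF827 (0.44), ZNF592 (0.41), ZNF148 (0.36) and ZNF451 (0.35), the last a ligase for SUMO, were also above 0. Of the list members not named elsewhere, ZNF689 (−0.12), ZNF335 (−0.10), ZNF263 (−0.08) and ZNF367 (−0.06) lay below 0. The rest of those ran from 0.02 for ZNF202 to 0.31 for ZNF746. None of the genes in this paragraph reached 1.5-fold.

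Members with roles in translation or RNA binding were few, and the ratios differed among them. ZNF598, the ubiquitin ligase that senses collided ribosomes, had 6737 counts with iMQT_020 and 7473 with vehicle (0.03). ZNF622, related to a yeast factor of large ribosomal subunit maturation, had 2328 and 2503 counts (0.07). ZNF326, a subunit of the DBIRD complex that couples transcription and splicing, had 7580 and 8013 counts (0.10), and ZNF346, which binds double-stranded RNA, had 2372 and 2389 counts (0.17). The values of ZNF239 (−0.59), ZNF830 (−0.40) and ZNF593 (−0.33), given above, lay below 0.

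The partners of KRAB zinc finger proteins were read from a list of 37 cofactor genes, all of which passed the minimum. Their median log2 ratio was 0.04 (−0.02 to 0.13), with 23 above 0, 1 called higher and 1 called lower. Each call is 2.70% of the list, close to the 2.25% of all genes called higher and the 3.65% called lower. TRIM28, the central cofactor, had 33386 counts and 391 TPM with iMQT_020, against 37055 counts and 373 TPM with vehicle (0.03). SETDB1, the methyltransferase it recruits, had 5547 counts with iMQT_020 and 5570 with vehicle (0.17). ATF7IP, which stabilises SETDB1 in the nucleus, was called higher, with 12035 and 8742 counts (0.64). UHRF1, which keeps DNA methylation through replication, was called lower, with 15020 and 27271 counts (−0.68). ATRX, a remodeller of repeats and telomeres, was at 0.43 and CHD4, the remodeller named above, at 0.41, both within 1.5-fold. The median of the cofactors lay close to that of all genes, below that of the ZNF members.

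Promoters of the members were searched for 4 short motifs, each on both strands. A RefSeq promoter, 250 bases before to 50 after the annotated start, was found for 202 of 233 members. The core of the ETS family site, CCGGAAG, was present in 89 of them, or 44.1%, against 22.1% of 6910 other expressed genes and 10.7% of all 27195 promoters in the table. The YY1 core ATGGCGG was in 11.4% of member promoters, 12.7% of those of other expressed genes and 5.74% of all. The NRF1 core GCATGCG was in 8.42%, 7.47% and 4.11%, and the ZNF143 core ACTACAA in 7.92%, 4.31% and 2.94%, in the same order. The motifs do not contain one another. The presence of the ETS core went with little difference in the ratio: the median was 0.22 for the 89 members with it and 0.18 for the 113 without. The 17 members with the NRF1 core all lay above 0 (median 0.21), and the 16 with the ZNF143 core had a median of 0.01 with 9 above 0.

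The promoters of 2 called higher and 2 called lower genes with an ETS core are printed as chosen examples. In each of them the core sits close to the start. Only promoters holding any of the searched motifs were eligible, so the choice does not show how often called genes hold the ETS core. The printed promoters are read 5′ to 3′ on the strand of the gene, from RefSeq on GRCh38.p14, with the searched motifs in capitals.
ZNF254: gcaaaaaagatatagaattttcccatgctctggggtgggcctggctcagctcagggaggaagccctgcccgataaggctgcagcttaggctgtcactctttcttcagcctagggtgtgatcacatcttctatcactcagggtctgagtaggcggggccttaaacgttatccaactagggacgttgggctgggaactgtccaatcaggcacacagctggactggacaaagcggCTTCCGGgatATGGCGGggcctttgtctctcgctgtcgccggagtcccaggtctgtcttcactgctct
ZNF845: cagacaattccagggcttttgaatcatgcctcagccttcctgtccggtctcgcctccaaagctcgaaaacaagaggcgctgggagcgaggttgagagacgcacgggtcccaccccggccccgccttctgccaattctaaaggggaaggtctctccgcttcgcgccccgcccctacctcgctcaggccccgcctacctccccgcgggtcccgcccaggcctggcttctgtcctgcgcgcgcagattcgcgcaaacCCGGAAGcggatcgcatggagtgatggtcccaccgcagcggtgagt
ZNF587B: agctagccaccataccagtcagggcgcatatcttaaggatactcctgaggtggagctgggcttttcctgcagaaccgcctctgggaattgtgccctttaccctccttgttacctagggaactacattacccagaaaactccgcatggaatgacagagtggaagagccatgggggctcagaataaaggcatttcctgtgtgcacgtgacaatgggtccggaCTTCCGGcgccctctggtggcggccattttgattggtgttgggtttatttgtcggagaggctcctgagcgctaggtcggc
ZNF239: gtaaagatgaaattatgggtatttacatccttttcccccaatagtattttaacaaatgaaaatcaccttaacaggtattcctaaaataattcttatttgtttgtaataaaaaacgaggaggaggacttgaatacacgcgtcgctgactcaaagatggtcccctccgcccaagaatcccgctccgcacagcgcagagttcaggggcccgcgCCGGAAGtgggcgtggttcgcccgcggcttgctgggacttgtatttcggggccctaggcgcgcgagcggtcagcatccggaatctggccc
The windows lie at chr19:24086937-24087236 (ZNF254, plus strand), chr19:53333499-53333798 (ZNF845, plus), chr19:57830049-57830348 (ZNF587B, plus) and chr10:43574567-43574866 (ZNF239, minus). ZNF254 and ZNF587B hold the ETS core in reverse orientation, written CTTCCGG, and ZNF845 and ZNF239 hold it forward. ZNF254 also holds a YY1 core a few bases further on. A match says only that these letters stand in the window. For ZNF254 the window lies within the annotated span of the gene, which begins further upstream.

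Near-identical copies and overlapping genes limit what single values can say. Each member was compared with the canonical transcripts of genes that do not overlap it, so sequence shared with an overlapping gene was not counted. In that comparison, 99 members shared no run of 50 bases, and 5 shared at least 20% of theirs. These 5 were ZNF286A (57.6%, mostly with ZNF286B), ZNF417 (36.1%), ZNF322 (28.1%), ZNF587 (24.6%) and ZNF585B (20.6%). The 81 members that shared at least 1% of their runs had a median log2 ratio of 0.27 and 9 calls higher (11.1%). The 152 that shared less had a median of 0.15 and 5 calls higher (3.29%). Of all genes, 2.25% were called higher. Another annotated gene overlapped 124 members, whose median was 0.22, and the 109 with no overlap had a median of 0.16.

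The members just inside the minimum were ZNF700 (1015 counts with iMQT_020 and 1005 with vehicle), ZNF354B (1008 and 1779) and ZNF248 (1011 and 1244). Just outside were ZNF841 (994 and 1037), ZNF697 (991 and 1184) and ZNF136 (1170 and 988). The minimum was reached in a single library by 24 ZNF genes, including those named as just outside. Of the 24, 5 reached it in the iMQT_020 library and 19 in the vehicle library, which was the deeper of the pair.

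Of the 279 ZNF genes below the minimum, 55 had 0 counts in both libraries, 37 had at most 49 counts, and 187 had at least 50 counts in 1 library. The 187 had a median log2 ratio of 0.10 (0.01 to 0.19), and 109 of them, or 58.3%, lay above 0, where 39% of the 4398 protein-coding genes in this range did. At 2-fold, 2 were higher, against 4.21% of those genes, and 3 were lower, against 6.64%. ZNF454 had 59 counts in the iMQT_020 library and 22 in the vehicle library, and ZNF648 had 50 and 26 (0.349 and 0.103 TPM). ZNF385C had 30 counts with iMQT_020 and 105 with vehicle, ZNF579 had 313 and 769, and ZNF331, an imprinted KRAB gene of chromosome 19, had 748 and 1734. At 1.5-fold, 23 were higher, where the rule took 10.3%, and 10 were lower, where it took 19.7%. ZNF407, in the iMQT_020 library alone above the minimum, had 1509 counts there and 902 with vehicle (0.92), but the deposited TPM of 4.11 (iMQT_020) and 3.27 (vehicle) gave a smaller difference.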

How the data were processed

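The members and gene lists were chosen with earlier results of these data known. Total RNA was mapped to GRCh38 with HISAT2 and Bowtie2, per the labels' protocols, and StringTie and edgeR are named per the submitters' processing notes. The sources used here do not give the counting step, its strand setting or the handling of reads with several places in the genome. The authors deposited estimated counts as whole numbers, and beside them deposited FPKM, scaled by length and depth, and deposited TPM, scaled to a fixed total. Columns were matched to samples by name, with 0 left unassigned.

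Counts were scaled by TMM over all genes in edgeR 4.0.16 under R 4.3.3, with factors 1.00 (iMQT_020) and 0.998 (vehicle), and the log2 ratio used a prior count of 0.5. TPM and FPKM served as alternatives on log2(value + 1), and TPM also on log2(value + 0.1); both with nothing added were alternatives chosen after the data were seen. Intervals are exact Clopper-Pearson 95% intervals for ratios, Wilson for shares and binomial order-statistic intervals for medians over genes. They cover counting error, or spread over genes, not variation between cultures. Other scalings were median of ratios from DESeq2 1.42.0, total counts and upper quartile.

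GC content, length, fingers (2 cysteines 2 residues apart, 12 residues, then 2 histidines 3 to 5 residues apart) and the KRAB motif came from GENCODE 44 canonical transcripts, translated, for all 233 members and 8135 other genes. Centring subtracted the median of other genes in 10 by 10 bins of GC content and length, each with at least 35 genes where a member lay. Positions and promoters came from RefSeq on GRCh38.p14. Computations used Python 3.11.15, and the calculation was checked on simulated counts.

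Genes were named by rule: the 12 highest and 12 lowest ratios, the 6 highest mean TPM, those nearest the minimum, the role list, TRIM28, SETDB1 and the 4 cofactors farthest from 0, and the extremes of each cluster. ZNF134, ZNF493, ZNF417, ZNF587, genes under the minimum, non-coding genes and those named for sequence sharing or for lacking finger matches were chosen after their values were seen. The 4 printed promoters are chosen examples, and those of the other called genes, ZNF503 and ZNF703 among them, are not printed. ZNF703 was left out of that choice by hand, although its ratio was lower than that of the printed ZNF239. No protein sequence was used here.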

Additional observations from a re-analysis of the deposited data

How the results depend on the processing

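Scaling and prior count left all medians and counts close to those reported: over these 4 alternatives the family median ran from 0.18 to 0.20 and the number above 0 from 173 to 176. Centring on GC content and length lowered the median to 0.11 for all members. It became 0.14 for those on chromosome 19 and 0.14 for those with a KRAB motif. Centring left 3 members 1.5-fold higher, where 0.825% of all genes were. On log2(FPKM + 1), 4 were 1.5-fold higher, where 1.27% of all genes were. On FPKM with nothing added, chosen after the data were seen, 12 were, where 2.47% of all genes were. TPM with nothing added gave 17, where 3.53% of all genes were. On that TPM scale 58.4% of all genes lay above 0. The minimum count set how many genes were called. With at least 200 counts in both libraries (391 genes), 2 were 2-fold lower, 28 and 13 were 1.5-fold higher and lower, and 268 lay above 0. Of all genes at that minimum, 2.92% were 1.5-fold higher, 6.25% were lower and 48.5% lay above 0. With 50 counts in at least 1 library (420 genes), 2 were 2-fold higher and 3 lower, 37 and 15 passed 1.5-fold, and 284 lay above 0. All genes there gave 5.01% and 9.13% at 1.5-fold, and 47.5% above 0. With 1 count in both (441 genes) the numbers were 7 and 5, 48 and 18, and 301. All genes there gave 8.27% and 10.6% at 1.5-fold, and 48.9% above 0. With 3000 in both (65 genes), 2 were 1.5-fold higher, 2 were lower and 54 lay above 0. The shares of all genes were 2.06%, 2.04% and 54.7%. Shares of all genes at 2-fold were not computed for these minimums. Genes with at least 1000 counts in both libraries gave 0.189% higher and 0.45% lower. Those with at least 50 counts in 1 library and under 1000 in 1 or both gave 4.21% and 6.64%. Among the 109 members overlapping no other gene, 7 were higher, 3 lower and 81 above 0. The shares of all genes without overlap were 1.81%, 4.97% and 48.2%. The changed numbers of genes follow from how those sets are built, and the cause of the others was not tested. No median among the 9 summary values changed sign, and the rest are counts, which have none. Of the 14 higher and 5 lower calls, 12 and 5 were shared with median of ratios, 11 and 3 with TPM on log2(TPM + 1), 4 and 3 with log2(FPKM + 1), 11 and 4 with FPKM and nothing added, and 3 and 3 after centring. Of 63 named genes, 41 moved beyond their counting interval after centring, 15 on log2(FPKM + 1) and 4 on FPKM with nothing added, and no called gene among them changed sign. No paired analysis was possible because each treatment had 1 library. At the depth of these libraries, a member with 1000 counts can be placed to about the width of the counting interval of ZNF354B, −0.76 to −0.53, and no variation between cultures is measured.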

Other observations

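Related transcripts that code for no protein were measured too. The 12 ZNF pseudogenes with at least 50 counts in 1 library had a median log2 ratio of 0.11, with 7 above 0. ZNF286B, which shares most of its sequence with ZNF286A, had 1096 counts with iMQT_020 and 803 with vehicle (0.62), and ZNF286A had 4119 and 3134 (0.57). The 12 antisense or divergent RNAs named after ZNF genes had a median of −0.12, with 4 above 0. ZNF503-AS2 lay at −0.99 beside −0.93 for ZNF503. ZNF790-AS1, the only one of the 12 at least 2-fold lower, had 22 counts with iMQT_020 and 55 with vehicle.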
